A study of Mus musculus with 17 samples.

Results

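Genes for the core survival and death factors of the Bcl2 family were followed in sorted mouse pancreatic β cells: *Bcl2*, *Bcl2l1*, *Bcl2l2* and *Mcl1* on the survival side, the effectors *Bax* and *Bak1*, and the BH3-only genes *Bad*, *Bbc3*, *Pmaip1* and *Bcl2l11*. These 10 members were chosen by gene symbol from the 55357 genes in the deposited tables, and all 10 passed the filter on low counts, which kept 22784 genes. Proteins of this family decide at the mitochondrial outer membrane whether a cell starts intrinsic apoptosis. BAX and BAK form pores through which cytochrome c leaves the mitochondrion, survival members such as BCL-XL and MCL1 hold them in check, and BH3-only proteins, which are made or activated under stress, release or directly trigger the pore formers. In β cells this balance has been studied for its part in cell loss under glucose, cytokine and endoplasmic reticulum stress.

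The RNA sequencing covered 17 samples in 4 groups of tdTomato+ β cells sorted from islets of male mice after 72 hours at 2.8 mM (low) or 16.7 mM (high) glucose. Control cells, called WT in the sample labels, came from mice with RIP-Cre and the Cre-inducible tdTomato reporter and gave 3 samples in low and 4 in high glucose. *Pcbp2* βKO cells, labelled PCBP2KO, came from RIP-Cre+;Pcbp2Fl/Fl;tdTomato mice, which lack the RNA-binding protein PCBP2 in β cells, and gave 5 samples at each concentration. All groups thus carried RIP-Cre, in which the rat insulin promoter drives the recombinase, and the reporter, and all cells had passed a gate that removed DAPI-stained dead cells. The age of the mice is not given in the sources used here. Nothing states whether replicates came from separate animals, so p values set group differences against the spread between these samples, which may be partly technical.

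Total estimated counts ranged from 47385513 to 82419400 per sample. *Pcbp2*, the targeted gene, stood at 50.7 to 73.4 CPM (counts relative to the TMM-scaled library size) in control cells in low glucose and 35.0 to 45.4 CPM in high glucose, and at 15.5 to 19.2 and 5.81 to 10.03 CPM in βKO cells, so every library matched its genotype label. Transcripts of 7 β cell markers summed to 42310 CPM or more in every sample, and those of 5 acinar markers to 0.327 CPM or less. The 4 leukocyte and macrophage markers moved with glucose, from 18.1 to 65.3 CPM in low and 2.21 to 15.1 CPM in high glucose in control cells, and from 26.1 to 153 and 1.64 to 13.5 CPM in βKO cells, where all 4 were called lower in high glucose. Along the first principal component 3 high-glucose libraries stood apart from the other 6, namely control replicate 4 and βKO replicates 4 and 5. All 3 lay nearer the low-glucose libraries on that axis, so leaving them out favours a larger glucose difference. The glucose results of the called members are given with and without them. *Ins2* alone took 4.92% to 10.4% of the counts in low glucose and 18.2% to 25.7% in high glucose, so that the scaling between samples bears on every comparison across glucose. The part of these shifts in the results below was not tested.

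*Bax* held the highest level in every group on the length-corrected TPM scale. It stood at 174 ± 34.5 TPM (SD, n = 3) in control cells in low glucose and 174 ± 9.27 TPM (SD, n = 5) in βKO cells in low glucose, and at 48.8 ± 19.4 TPM (SD, n = 4) and 48.0 ± 15.2 TPM (SD, n = 5) in high glucose. *Bcl2l1*, which encodes BCL-XL, and *Bad* came next in all 4 groups, at means of 13.6 to 27.9 TPM and 17.4 to 24.6 TPM, and their samples overlapped within each group. *Bcl2l11*, *Bbc3*, *Bcl2l2* and *Mcl1* formed a middle tier at means of 1.17 to 8.73 TPM. Within that tier *Bcl2l11* led in both low-glucose groups and its samples lay above all of *Bbc3* in control cells, while in high glucose neighbours in the order overlapped throughout. *Bcl2*, *Bak1* and *Pmaip1* were lowest, at means of 0.209 TPM or less, and their samples overlapped with each other in every group.

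**Figure D1:**
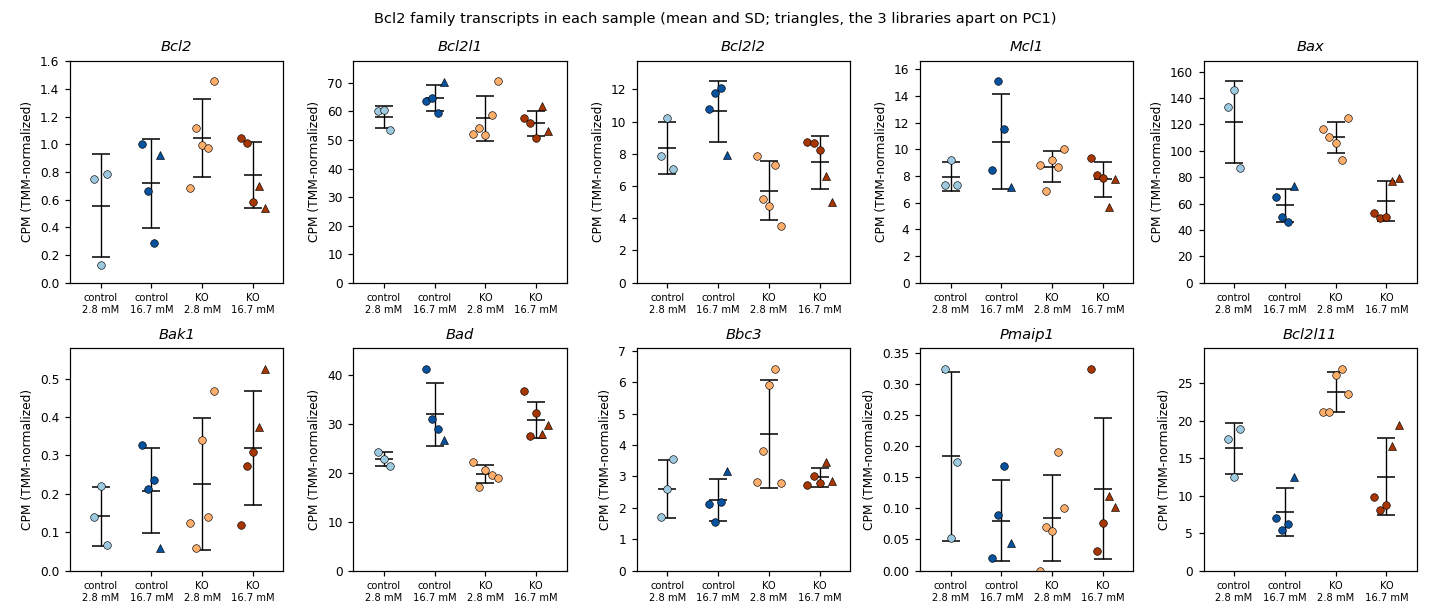
Expression of the 10 members in each of the 17 samples, as CPM on linear axes from 0. Points are samples, triangles mark the 3 libraries that stand apart, and bars give the mean and SD. *Bax* spans 87.2 to 146 CPM in low and 46.3 to 79.3 CPM in high glucose, and *Bcl2*, *Bak1* and *Pmaip1* stay under 1.5 CPM.

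The 2 members that were called lower in high glucose in both genotypes were *Bax*, an effector, and *Bcl2l11*, which encodes the BH3-only protein BIM. Short stretches of their promoters are printed to show the sequence around the start of each gene, from RefSeq promoters of 300 bases (250 before and 50 after the start, build GRCm38.p6), in which 9 of the 10 members were matched. The motifs CACGTG (E-box), TGTTTAC (forkhead) and TGACGTCA (cAMP response element) were searched on both strands, and capitals mark the match.
*Bax*, chr7:45466890-45466919, reverse strand, match at position -9 from the start: agcgatgatgatCACGTGactagtcctgcg
*Bax*, chr7:45466849-45466878, reverse strand, match at position 35: atgttgcggggcaccCACGTGagggccgca
*Bcl2l11*, chr2:128125800-128125829, forward strand, match at position -227 to the reverse complement of the forkhead motif: aagacactaggGTAAACAcgccggggtggg
CACGTG was found in 7.15% of all 32851 promoters and, among the members, in those of *Bax* and *Bbc3*. TGTTTAC was found in 3.65%, among the members in *Bbc3* and *Bcl2l11*, and TGACGTCA in 1.79% and in no matched member. A match describes these letters alone and no binding was measured.

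To ask how the family responded to sustained glucose in control cells, high was compared with low glucose. *Bax* and *Bcl2l11* fell in high glucose, *Bad* was higher without passing the fold limit, and no other member passed the test. A gene was called where the quasi-likelihood test of edgeR gave a Benjamini-Hochberg adjusted p under 0.05 with more than 1.5-fold change. On this rule 2 of 10 members were called, both lower, where 13.8% of all tested genes were called and 6.69% were called lower. With so few members, 2 calls stand close to that background. The median log2 fold change of the members was 0.25 and that of all tested genes 0.04.

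*Bax* (ENSMUSG00000003873, chromosome 7 from 45111015 to 45116325, reverse strand, GRCm39) measured 133, 146 and 87.2 CPM in the control samples in low glucose and 64.9, 49.7, 46.3 and 73.4 CPM in those in high glucose. All high-glucose samples thus lay below all low-glucose samples. The log2 fold change was -1.06 (SE 0.21), a ratio of 0.480, with an adjusted p of 0.00372 by edgeR, and -1.21 without the 3 libraries apart. Samples of the groups did not overlap for *Bax* and *Bad*, 2 of 10 members, as for 24.1% of all tested genes. The exact two-sided permutation test gave p = 0.0571 for *Bax*, the smallest that 3 against 4 samples allow.

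*Bcl2l11* (ENSMUSG00000027381, chromosome 2 from 127967958 to 128004476, forward strand) measured 17.6, 12.5 and 18.9 CPM in low and 7.01, 5.43, 6.17 and 12.5 CPM in high glucose. The groups met at 12.5 CPM, in replicate 2 in low and replicate 4 in high glucose. The log2 fold change was -1.07 (SE 0.31, adjusted p = 0.0245 by edgeR). The exact two-sided permutation test gave p = 0.114, where 3 against 4 samples allow 0.0571 at the smallest. Without low-glucose replicate 1 or 3 the adjusted p was 0.0802 or 0.0820 by edgeR, and without high-glucose replicate 1, 2 or 3 it was 0.0609, 0.0774 or 0.0722, while the log2 fold change lay between -0.93 and -1.38 over all 7 fits that left out 1 library. Without the 3 libraries apart it was -1.42 with an adjusted p of 7.93e-05 by edgeR. These 3 lay nearer the low-glucose libraries on the first principal component, so their removal favours a larger difference and adds no independent support. With the replicate number as a block, the log2 fold change was -1.30 with an adjusted p of 0.00053 by edgeR. This block tied same-numbered samples across all groups, not the control samples alone. Control replicate 4 and βKO replicate 4 in high glucose, both apart, thus shared a block.

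*Bad* (ENSMUSG00000024959, chromosome 19 from 6918902 to 6929280, forward strand), whose BH3-only product binds BCL-XL when dephosphorylated, measured 24.3, 22.9 and 21.4 CPM in low and 41.3, 30.9, 28.8 and 26.8 CPM in high glucose. Every high-glucose sample lay above every low-glucose sample in CPM. The log2 fold change was 0.48 (SE 0.15, adjusted p = 0.0408 by edgeR), under the limit of 1.5-fold, and 0.54 without the 3 libraries apart. In TPM the difference turned, at -0.30 on the log2(TPM + 1) scale by limma (adjusted p = 0.0623), and under scaling by total counts it was 0.08.

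The survival genes showed no call. *Bcl2l1* measured 53.6 to 60.7 CPM in low and 59.6 to 70.5 CPM in high glucose, with a log2 fold change of 0.15 (SE 0.13, adjusted p = 0.464 by edgeR). *Mcl1*, whose short-lived product depends on continued synthesis, measured 7.31 to 9.19 and 7.14 to 15.1 CPM (log2 fold change 0.41, adjusted p = 0.271). *Bcl2l2*, which encodes BCL-W, measured 7.09 to 10.2 and 7.92 to 12.1 CPM (log2 fold change 0.34, adjusted p = 0.44). The samples of each of these overlapped between the groups, and the sign for *Bcl2l1* and *Bcl2l2* turned under total counts and in TPM, and for *Mcl1* in TPM.

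The remaining members were low. *Bbc3*, which encodes the BH3-only protein PUMA, measured 1.69 to 3.54 CPM in low and 1.55 to 3.17 CPM in high glucose (log2 fold change -0.21, adjusted p = 0.735). *Bcl2*, the founding survival gene, stood at 0.129 to 0.788 and 0.286 to 1.00 CPM, and *Bak1*, the effector next to *Bax*, at 0.0656 to 0.219 and 0.0587 to 0.327 CPM. *Pmaip1*, which encodes NOXA, stood at 0.0516 to 0.324 and 0.0204 to 0.168 CPM. Its log2 fold change was -1.17, with a 95% interval from -3.01 to 0.67.

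**Figure D2:**
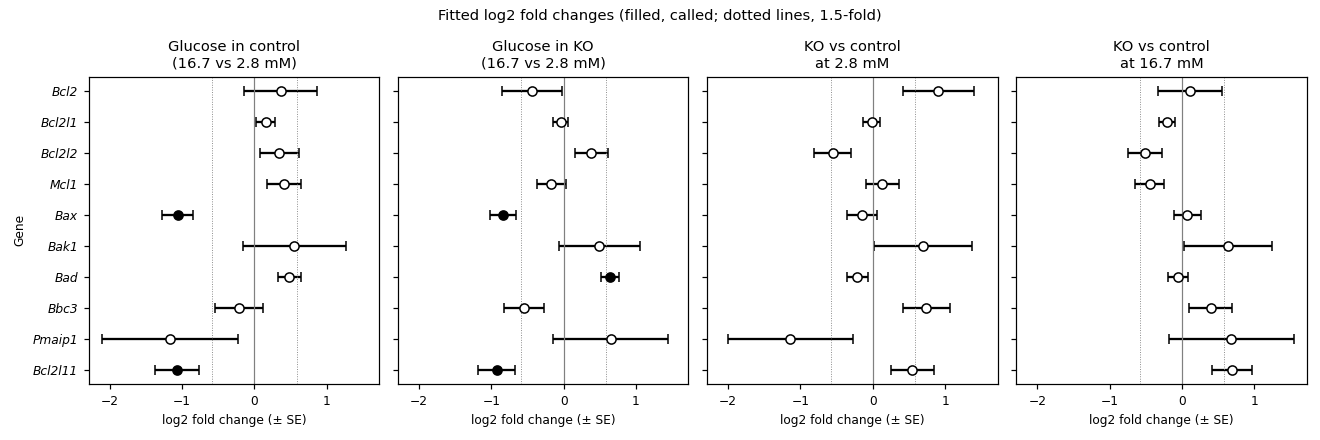
Fitted log2 fold changes (points) with their SE (bars) for the 10 members in 4 comparisons, with filled points for called genes and dotted lines at 1.5-fold. *Bax* (-1.06 and -0.84) and *Bcl2l11* (-1.07 and -0.92) are filled on the left side in both glucose comparisons, *Bad* is filled at 0.64 in βKO cells, where its sign turns in TPM, and no point is filled in the knockout comparisons.

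The same comparison in *Pcbp2* βKO cells gave 3 calls. *Bax* and *Bcl2l11* fell in high glucose and *Bad* rose, against 23.8% of all tested genes called, 10.4% lower and 13.4% higher. These 3 were also the members whose samples did not overlap, where 21.6% of all tested genes did not. The members' median log2 fold change was -0.11, against 0.01 for all tested genes. With so few members, calls in 3 of 10 stand close to the background of 23.8%. The 2 glucose comparisons share no samples.

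*Bax* measured 117, 111, 106, 93.0 and 125 CPM in low and 53.1, 49.1, 49.7, 77.5 and 79.3 CPM in high glucose in βKO cells. The highest high-glucose values came from replicates 4 and 5, which stand apart, and still lay below every low-glucose sample. The log2 fold change was -0.84 (SE 0.18, adjusted p = 0.00182 by edgeR), and -1.16 without the 3 libraries apart. The exact two-sided permutation p of 0.00794, equal for *Bax*, *Bad* and *Bcl2l11*, is the smallest that 5 against 5 samples allow.

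*Bcl2l11* measured 21.2, 21.2, 26.2, 27.0 and 23.6 CPM in low and 9.85, 8.03, 8.76, 16.6 and 19.5 CPM in high glucose. Replicates 4 and 5 again gave the highest of the high-glucose values, which were all below the low-glucose values. The log2 fold change was -0.92 (SE 0.26, adjusted p = 0.0106 by edgeR), and -1.46 without the 3 libraries apart.

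*Bad* measured 22.2, 17.2, 20.6, 19.6 and 18.9 CPM in low and 36.6, 27.5, 32.1, 27.9 and 29.8 CPM in high glucose. The log2 fold change was 0.64 (SE 0.13, adjusted p = 0.00096 by edgeR). This direction held under TMM and the size factors of DESeq2, whereas under total counts the log2 fold change was 0.16 and not called, and in TPM it was -0.36 on the log2(TPM + 1) scale by limma (adjusted p = 0.00611). Without high-glucose replicate 1 it was 0.57, under the fold limit, and without the 3 libraries apart 0.67.

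No survival gene was called in βKO cells with TMM scaling. *Bcl2l1* measured 51.8 to 70.8 CPM in low and 50.6 to 62.0 CPM in high glucose, with a log2 fold change of -0.04 (SE 0.10, adjusted p = 0.811 by edgeR). *Mcl1* measured 6.84 to 9.99 and 5.64 to 9.34 CPM (log2 fold change -0.17, adjusted p = 0.571), and *Bcl2l2* 3.53 to 7.86 and 5.02 to 8.74 CPM (log2 fold change 0.38, adjusted p = 0.217). *Bbc3* measured 2.78 to 6.43 and 2.72 to 3.47 CPM (log2 fold change -0.55, adjusted p = 0.146). Under total counts *Mcl1* (-0.66) and *Bbc3* (-1.03) were also called lower, and *Bcl2l1* stood at -0.52 (adjusted p = 0.00414 by edgeR), under the fold limit. Under that scaling the median of all tested genes stood at -0.47 in βKO cells and -0.35 in control cells, against 0.01 and 0.04 with TMM. With limma on log2(TPM + 1), *Bcl2l1* was called lower in βKO cells (-0.98, adjusted p = 9.85e-06), as were *Bax*, *Bcl2l11*, *Mcl1* and *Bbc3*.

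Ratios between members of the same sample are free of the scaling between samples, and are given as a description. The TPM of *Bax* were 6.92 ± 1.33 times those of *Bcl2l1* in control cells in low glucose (SD, n = 3) and 2.84 ± 0.442 times in high glucose (SD, n = 4). In βKO cells the ratio was 6.29 ± 0.89 in low and 3.48 ± 0.818 in high glucose (SD, n = 5 each), and in both genotypes the low-glucose samples, at 5.10 or more, lay above all high-glucose samples, at 4.62 or less. The ratio of *Bcl2l11* to *Bcl2l1* was 0.225 ± 0.0587 and 0.0886 ± 0.0331 in control cells and 0.311 ± 0.0592 and 0.171 ± 0.0715 in βKO cells, in low and high glucose. Its samples ran from 0.159 to 0.271 and from 0.0656 to 0.137 in control cells, without overlap, and from 0.252 to 0.396 and from 0.116 to 0.281 in βKO cells, with overlap. The ratio of *Bad* to *Bcl2l1* went the other way, from 0.978 ± 0.0411 to 1.23 ± 0.327 in control cells, with overlap, and from 0.82 ± 0.138 to 1.29 ± 0.187 in βKO cells, where the samples ran from 0.646 to 0.99 and from 1.06 to 1.51.

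**Figure D3:**
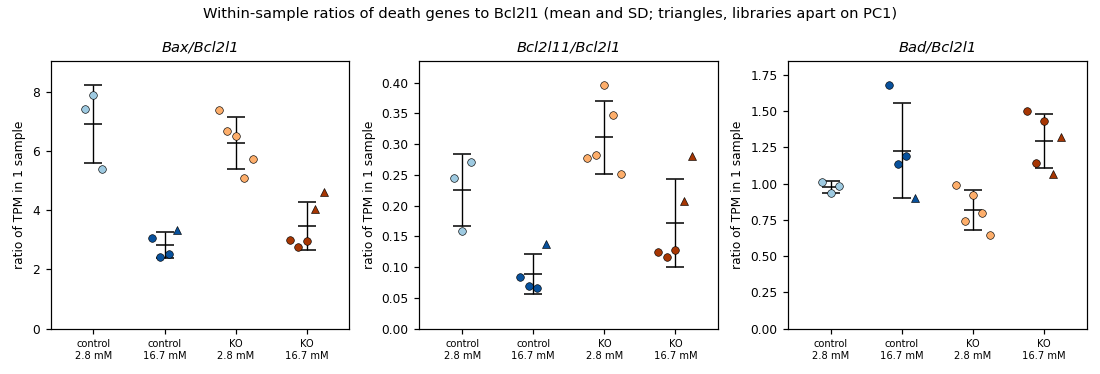
Ratio of the TPM of *Bax*, *Bcl2l11* and *Bad* to the TPM of *Bcl2l1* in each sample, on linear axes from 0, with the mean and SD and with triangles for the 3 libraries apart. The ratio for *Bax* is 5.10 or more in low and 4.62 or less in high glucose in both genotypes, and that for *Bad* is higher in high glucose in βKO cells without overlap.

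The 3 libraries that stand apart lay between the other high-glucose samples and the low-glucose samples for *Bax*, at 73.4 to 79.3 CPM against 46.3 to 64.9 CPM in the other 6 and 87.2 to 146 CPM in the 8 low-glucose samples. For *Bcl2l11* they measured 12.5 to 19.5 CPM, against 5.43 to 9.85 and 12.5 to 27.0 CPM. For *Bad* they measured 26.8 to 29.8 CPM, against 27.5 to 41.3 and 17.2 to 24.3 CPM. Without them the members called were the same in number in every comparison, 2 in control and 3 in βKO cells for glucose and 0 for the others.

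To ask whether loss of PCBP2 changed the family, βKO cells were compared with control cells at each concentration. At 2.8 mM 0 of 10 members were called by edgeR, which called 2.04% of all tested genes, and 0 by DESeq2, and 2 had an unadjusted p under 0.05. The nearest were *Bbc3* (log2 fold change 0.74, SE 0.33, adjusted p = 0.335) and *Bcl2l2* (-0.55, SE 0.25, adjusted p = 0.367). *Bcl2l11* was the 1 member whose samples did not overlap, at 21.2 to 27.0 CPM in βKO and 12.5 to 18.9 CPM in control cells, as for 10.9% of all tested genes. Its log2 fold change was 0.55 (SE 0.30, adjusted p = 0.477 by edgeR), and the exact permutation test gave p = 0.0357, the smallest that 3 against 5 samples allow. *Bax* differed by -0.15 on the log2 scale, with a 95% interval from -0.55 to 0.25, and *Bcl2l1* by -0.01, from -0.25 to 0.22.

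At 16.7 mM 0 of 10 members were called by edgeR, which called 1.71% of all tested genes, and 0 by DESeq2, and 3 had an unadjusted p under 0.05. No member had groups without overlap, as 4.49% of all tested genes did. *Bcl2l11* had the lowest adjusted p, 0.297, with a log2 fold change of 0.69 (SE 0.27), at 8.03 to 19.5 CPM in βKO and 5.43 to 12.5 CPM in control cells. Without control replicate 4, which stands apart, this became 1.00 with an adjusted p of 0.048 by edgeR, and without all 3 libraries apart it was not called. *Bcl2l2* (-0.51, SE 0.24) and *Mcl1* (-0.45, SE 0.21) both had an adjusted p of 0.392. For *Bax* the log2 fold change was 0.08, with a 95% interval from -0.30 to 0.45, and its sign turned without the 3 libraries apart.

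The difference between the genotypes in the response to glucose was tested as an interaction. 0 of 10 members were called by edgeR, which called 0.00439% of all tested genes, and 0 by DESeq2, which called 32 genes in all. No member had an unadjusted p under 0.05 by edgeR, and the adjusted p was 1.0 for each. The estimates were 0.23 for *Bax* (95% interval -0.32 to 0.77), 0.14 for *Bcl2l11* (-0.64 to 0.93) and 0.16 for *Bad* (-0.23 to 0.55). These intervals leave room for moderate differences in either direction. The call of *Bad* in βKO cells alone is therefore no shown difference from control cells.

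At the transcript level the tables held 52 transcripts of the 10 genes, 42 of them protein coding, and 14 reached a mean of 1 TPM. *Bax* came mostly from Bax-201, at group means of 80.6% to 84.4% of its TPM, *Bcl2l1* from Bcl2l1-201 at 64.5% to 66.5%, and *Bad* from Bad-202 at 61.1% to 69.3%. These shares were compared in 12 exact two-sided permutation tests (lowest adjusted p = 0.429), a number over which no single difference could pass after adjustment in groups of this size. The largest difference was -8.24 percentage points, for Bad-202 between βKO and control cells in low glucose, and the largest for Bax-201 was -3.80 percentage points, with glucose in control cells, where the samples ran from 83.1% to 85.2% in low and from 79.5% to 81.7% in high glucose. *Bcl2l11* was spread over several transcripts, led by a coding transcript of 5036 bases at a mean of 1.46 TPM over all samples.

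**Figure D4:**
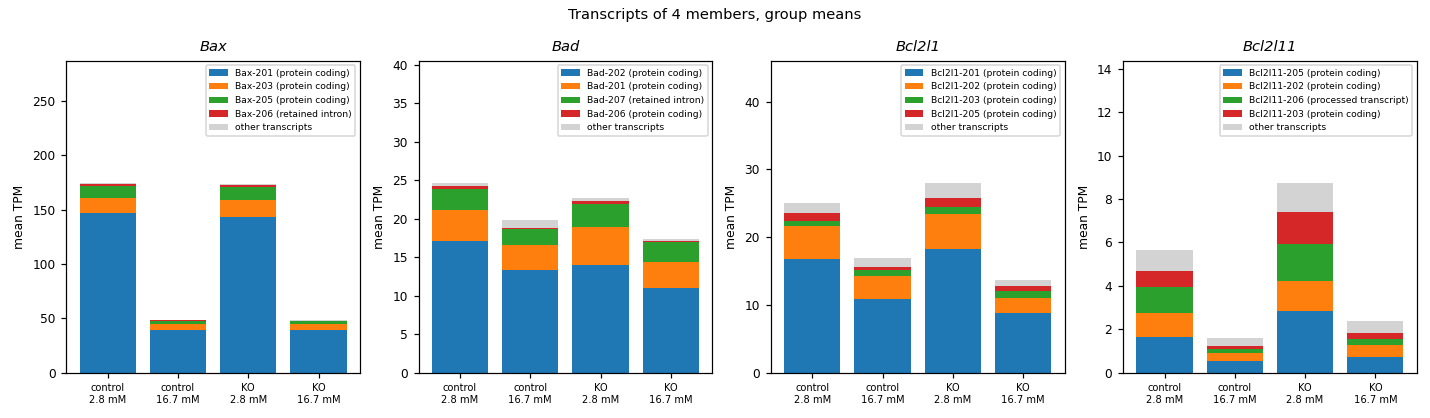
Mean TPM of the transcripts of *Bax*, *Bad*, *Bcl2l1* and *Bcl2l11* in the 4 groups, stacked from 0, with the biotype in the legend. Bax-201 makes up 80.6% to 84.4% of *Bax* in every group.

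Some members overlap other genes in the annotation (GENCODE M39), and the counting is not stated to use strand. *Bcl2l2* shares its strand with the coding gene *Gm20521*, listed at group means of 0.17 to 1.28 CPM, and *Bax* with *Gm45808*, at 0.123 to 0.543 CPM. *Bcl2l11* shares its strand with the coding gene *Gm74510*, for which no level is given here. *Bad* overlaps *Gpr137* on the other strand, at 11.9 to 15.3 CPM, so reads of this pair cannot be told apart with certainty. *Bak1* likewise overlaps *Ggnbp1* on the other strand, listed at 2.97 to 6.57 CPM.

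For the called members, the genes of at least 5 mean CPM with the most similar log2 CPM over the 17 samples were named from 10014 genes, as a description, since the samples share the glucose groups. For *Bax* these were *0610010K14Rik* (r = 0.98), *Utp14a* (0.978) and *9130401M01Rik* (0.975). For *Bcl2l11* they were *Tef* (0.965), *Aasdh* (0.96) and *Ap3m2* (0.957), and for *Bad* they were *Atf6b* (0.957), *Rab4b* (0.957) and *Scamp2* (0.949).

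Around the family, 63 other apoptosis genes in 7 lists were examined, of which 60 were tested. With glucose 3 were called higher and 10 lower in control cells, and 6 higher and 12 lower in βKO cells. Of all tested genes 13.8% and 23.8% were called, 6.69% and 10.4% lower. The medians of the log2 fold changes of the listed genes were -0.14 and -0.19. Under total counts the calls became 2 higher and 22 lower, and 2 higher and 29 lower. Without the 3 libraries apart they became 4 and 14, and 8 and 16. Both alternatives were chosen after seeing the data. Under total counts 4837 and 7851 of all 22784 tested genes were called, 4055 and 6369 lower. Without the 3 libraries apart 4898 and 6390 of 22352 were called, 2627 and 3209 lower. Among other Bcl2 family genes (12 of 15 tested), *Bid*, whose product links death receptors to BAX and BAK, fell in control cells from 25.7 ± 10.7 to 7.57 ± 4.82 CPM (log2 fold change -1.76, adjusted p = 0.0209) and in βKO cells from 16.7 ± 8.37 to 4.66 ± 2.72 CPM (-1.84, adjusted p = 0.00282). *Bcl2a1b*, which has near-identical copies and is known from leukocytes, and *Bcl2l14* were called in βKO cells, both at low levels. There *Bcl2a1b* went from 0.787 ± 0.205 to 0.041 ± 0.076 CPM (log2 fold change -4.14, SE 1.11). *Bcl2l14* went from 0.089 ± 0.091 to 1.09 ± 0.62 CPM (3.68, SE 0.78). The leukocyte markers given above also fell in βKO cells, and a link to *Bcl2a1b* was not tested. In control cells their summed median went from 30.7 to 7.78 CPM, and *Bcl2a1b* was not called (-1.82, adjusted p = 0.323 by edgeR).

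Of 8 apoptosome and caspase genes, *Apaf1*, the scaffold of the apoptosome, fell in both genotypes (-0.67 in each), *Casp6* fell in control cells (-0.62) and *Casp8*, the initiator of the death receptor pathway, rose in βKO cells (0.74), though not under total counts. In βKO cells *Casp6* stood at -0.57 (adjusted p = 0.0135 by edgeR), under the fold limit. For genes of these lists, a call in 1 genotype alone is no shown difference between genotypes, since none was called for the interaction. None of 6 caspase inhibitors and their antagonists was called for glucose. Of 8 p53 axis genes, *Ccng1*, a p53 target, fell in both (-1.19 and -1.49), *Mdm4* was called lower in control cells (-0.70) and *Cdkn1a* in βKO cells (-1.17). *Mdm4* stood at -0.56 in βKO cells (adjusted p = 0.00323 by edgeR), under the fold limit. *Cdkn1a* stood at -0.67 in control cells (adjusted p = 0.162 by edgeR). Of 7 death receptor genes, *Cflar*, which encodes the caspase-8 inhibitor cFLIP, rose in both genotypes, from 31.5 ± 5.32 to 66.7 ± 16.3 CPM in control cells (log2 fold change 1.08, adjusted p = 0.00207) and from 26.9 ± 4.17 to 62.5 ± 7.77 CPM in βKO cells (1.21, adjusted p = 3.76e-05), and it also rose under total counts. *Tnfrsf10b*, a receptor for TRAIL, fell in both (-1.02 and -1.03), and *Ripk1* in βKO cells (-0.79).

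Of 9 partners and turnover factors, *Dynll1*, a dynein light chain that binds BIM, rose in both (1.37 and 0.83, in βKO cells not under total counts), *Vdac2*, which recruits BAK to mitochondria, fell in both (-0.80 and -0.88), *Fbxw7* rose in control cells (0.59, not under total counts) and *Dynll2* fell in βKO cells (-0.77). Of 11 transcription factors known to act on members, *Ddit3*, the stress factor CHOP, fell from 642 ± 148 to 106 ± 109 CPM in control cells (log2 fold change -2.61, adjusted p = 0.0166) and from 527 ± 35.3 to 63.8 ± 77.2 CPM in βKO cells (-3.05, adjusted p = 0.00103). *Stat5a* (-1.28 and -0.97) and *Stat5b* (-0.75 and -1.02) also fell in both, and *Nfkb1* rose in βKO cells (0.87, not under total counts). Between genotypes, *Tnfrsf1a*, the receptor of TNF, was lower in βKO cells at both concentrations, at 38.0 ± 3.08 against 62.6 ± 2.62 CPM in low glucose (log2 fold change -0.72, adjusted p = 0.00322) and 38.0 ± 4.39 against 57.0 ± 8.41 CPM in high glucose (-0.59, adjusted p = 0.0115), the latter at the fold limit and not called under total counts (-0.54). *Casp8* was lower in βKO cells in low glucose (-0.79, adjusted p = 0.0184), though not under total counts (-0.66). Without the 3 libraries apart *Tnfrsf1a* was called lower at both concentrations, *Casp8* and *Bcl2l14* (-2.97) at 2.8 mM, and *Cdkn1a* (-1.19) and *Ddit3* (-0.84) at 16.7 mM. *Bcl2l14* was low at 2.8 mM, at 0.089 CPM in βKO and 0.669 CPM in control cells in the fit of all libraries. With all libraries no gene of the lists was called for the interaction.

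**Figure D5:**
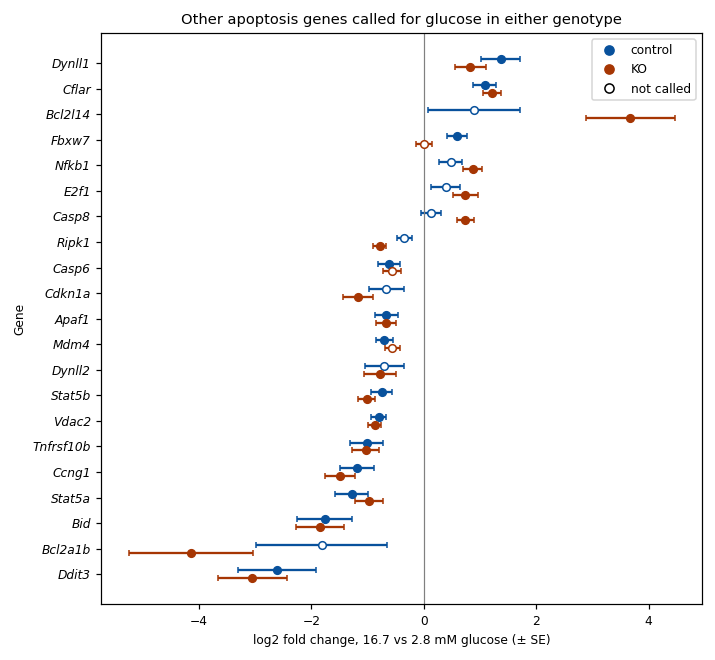
Log2 fold changes for high against low glucose (points, with SE as bars) of the other apoptosis genes called in either genotype, with open points where the gene was not called. *Ddit3* (-2.61 and -3.05) and *Bid* (-1.76 and -1.84) lie on the left and *Cflar* (1.08 and 1.21) on the right in both genotypes.

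In bulk samples, fewer cells of a type and less RNA per cell cannot be told apart. Transcript levels do not show protein levels or the phosphorylation state on which the action of the *Bad* product depends. The study adjusted for batch, but neither the labels nor its text say which sample was in which batch, so batch did not enter these comparisons and its part was not tested.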

How the data were processed

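RNA from sorted β cells was sequenced as 150-nt read pairs from ultra-low-input poly(A) libraries. The authors pseudoaligned the reads to the GRCm39 mouse transcriptome (mm39 in the submitters' processing notes) with Kallisto, and deposited estimated counts, effective lengths and TPM for 142376 transcripts in each of 17 samples. The deposited estimated counts are not normalized between samples, and the deposited TPM, scaled to length and to 1 total per sample, let a rise of *Ins2* lower all other genes.

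Estimated counts were summed per gene and rounded, and fitted with edgeR 4.0.16 (R 4.3.3) as 4 group means in all samples, with TMM factors of 0.752 to 1.29 and the default expression filter. The Benjamini-Hochberg adjustment ran over all 22784 genes tested. Standard errors came from the estimate and its F statistic, and 95% intervals use 1.96 SE. Log2 CPM used a prior count of 2. Exact permutation tests used scipy 1.17.1. DESeq2 1.42.0 and limma 3.58.1 on log2(TPM + 1), the latter added after seeing the data, served as alternatives, beside other scalings, no filter, summing by length-scaled TPM, and each library left out. The edgeR fit, limma and the permutation test were first tested on simulated data.

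Groups and replicate numbers came from the sample labels. Deviations of same-numbered control samples in low and high glucose correlated across genes at 0.123 to 0.258, each over 0.1, so these numbers were taken to pair them. No label states such a pairing. The main fit and the permutation tests did not use it and treated all samples as independent. The replicate block was run as an alternative. The other pairs of groups each had at least 1 correlation at or under 0.1. For βKO cells in low and high glucose the correlations ran from 0.066 to 0.193.

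The members and gene lists were chosen with earlier results of these data known. Named were all members, *Pcbp2*, up to 4 called genes per list by size of change, and the 3 genes most like each called member. Marker lists for β, alpha, delta, PP, acinar, ductal, endothelial, leukocyte and stellate cells and for proliferation were summed. The summed CPM of 4 alpha markers ran from 530 to 2601 in control cells and from 950 to 9404 in βKO cells, of 3 delta markers from 147 to 1316 and of *Ppy* from 224 to 5112 over all samples. Those of 3 ductal markers stayed at or under 11.2 CPM, of 3 endothelial markers under 1.15 CPM and of 3 stellate markers at or under 0.92 CPM. The summed CPM of 6 proliferation markers ran from 2.18 to 271, and all 6 were called higher in high glucose in βKO cells. Counting intervals were not computed, since the SD of replicates includes counting error.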

Additional observations from a re-analysis of the deposited data

How the results depend on the processing

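*Bax* and *Bcl2l11* kept their direction for glucose in both genotypes under every alternative run. Of the 499 values recomputed under settings other than leaving out a single library, 460 were rated as the same. For log2 fold changes this meant the same direction and side of the threshold. Counts of called members could differ and still be rated so. This held for 3 against 2 in control cells on the adjusted p alone, and 4 against 3 in βKO cells under total counts. The members called for glucose in control cells numbered 2 under each setting except the adjusted p alone, with 3, and from 1 to 2 with single libraries left out. In βKO cells they numbered 3, except 4 under total counts and 5 with limma on log2(TPM + 1), and from 2 to 3 with single libraries left out. For the knockout at 16.7 mM they ranged from 0 to 1 with single libraries left out. The fit with the groups compared alone gave no value for *Pmaip1* in the knockout at 16.7 mM and in glucose in βKO cells, where it failed the filter.

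The replicate block, which tied same-numbered samples across all groups, changed no member's call. It gave -1.13 for *Bax* with glucose in control cells. With the block the interaction turned to -0.001 for *Bcl2l2* and 0.084 for *Bak1*. The calls over all genes for glucose in control cells rose from 3153 to 4775 with it.

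For signs that turned, the cause was not tested and no value of the knockout or interaction was called. Under total counts the log2 fold changes for glucose in control cells were -0.033 for *Bcl2*, -0.224 for *Bcl2l1* and -0.056 for *Bcl2l2*, and -0.108 for *Bcl2l2* in βKO cells. They were 0.105 for *Bcl2l1* in the knockout at 2.8 mM and -0.052 for *Bcl2l2* in the interaction. With limma on log2(TPM + 1), glucose in control cells gave -0.043 for *Bcl2*, -0.575 for *Bcl2l1*, -0.242 for *Bcl2l2*, -0.272 for *Mcl1*, -0.019 for *Bak1* and -0.298 for *Bad*. In βKO cells it gave -0.424 for *Bcl2l2*, -0.034 for *Bak1*, -0.358 for *Bad* and -0.024 for *Pmaip1*. It gave -0.005 for *Bcl2* and -0.008 for *Bax* in the knockout at 16.7 mM, and 0.142 for *Bcl2l1* and 0.016 for *Bax* at 2.8 mM. In the interaction it gave -0.182 for *Bcl2l2*, -0.024 for *Bax*, -0.059 for *Bad* and -0.153 for *Bcl2l11*. Length-scaled TPM counts gave 0.006 for *Bcl2l1* in the knockout at 2.8 mM, and -0.14 for *Bcl2l2* and 0.057 for *Bak1* in the interaction. Without the 3 libraries apart, the knockout at 16.7 mM gave -0.089 for *Bax* and -0.147 for *Bak1*, and the interaction -0.044 for *Bcl2l11*.

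With single libraries left out, glucose in control cells ranged from -0.106 to 0.692 for *Bcl2* and from -0.445 to 0.074 for *Bbc3*, and in βKO cells from -0.082 to 0.044 for *Bcl2l1*. The knockout at 16.7 mM ranged from -0.154 to 0.309 for *Bcl2*, from -0.03 to 0.189 for *Bax* and from -0.144 to 0.094 for *Bad*. The knockout at 2.8 mM ranged from -0.1 to 0.021 for *Bcl2l1* and from -0.342 to 0.001 for *Bax*. The interaction ranged from -0.12 to 0.185 for *Bcl2l2*, from -0.509 to 0.398 for *Bak1* and from -0.071 to 0.454 for *Bcl2l11*.

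Estimated counts of *Pmaip1* ranged from 0 to 27.8 per library, and its 95% interval for glucose in control cells ran from -3.01 to 0.67 on the log2 scale.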
